A study of Mus musculus with 48 samples.

Results

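The renal genes examined were those of phosphate transport across tubular cells: the type II sodium-phosphate cotransporters Slc34a1, Slc34a2 and Slc34a3, the type III cotransporters Slc20a1 and Slc20a2, the phosphate exporter Xpr1, the PDZ scaffolds Pdzk1, Slc9a3r1 and Slc9a3r2, and the parathyroid hormone receptor Pth1r. They were chosen by symbol, with earlier results of these data known. Taking every probe set annotated to these 10 genes on the Affymetrix mouse 430A and 430B arrays gave 26 of 45137 probe sets that are not controls. Xpr1 had 7 probe sets, Slc9a3r2 had 6, Slc20a1 and Slc9a3r1 had 3 each, Slc20a2 had 2, and the other 5 genes had 1 each. Probe sets of 1 gene were not independent: 2 of the 3 for Slc9a3r1, 3 of the 7 for Xpr1 and, in sets of 3 and 2, 5 of the 6 for Slc9a3r2 were designed from shared sequence records.

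Kidney RNA came from Hyp mice, in which the gene Phex on the X chromosome is mutated, a model of X-linked hypophosphatemia, and from normal littermates. Per the labels, Hyp males were Hyp/Y and Hyp females were Hyp/+, so that the females still had a normal Phex copy; C57BL/6J was named as the strain for 1 sample. Hyp and normal mice of both sexes, 10 weeks old, were given a low phosphorus or a control diet for 3 days. Each of the 8 groups (Hyp males and females on low phosphate, Hyp males and females on control, normal males and females on low phosphate, normal males and females on control) held 3 pools, each of 3 mice, and each pool went on both arrays. Because a replicate was a pool of mice, its spread was that of pools and not of single animals.

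Phosphate filtered at the glomerulus is taken back in the proximal tubule, where sodium-coupled cotransporters sit in the brush border. Parathyroid hormone, acting through Pth1r, and the bone hormone FGF23, acting through its coreceptor klotho, lower the number of cotransporters in that membrane. PDZ scaffold proteins tether the cotransporters, the sodium-proton exchanger NHE3 and the hormone receptor to the apical cytoskeleton. In Hyp mice, as background, the kidney wastes phosphate.

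Signals were deposited as intensity on a linear scale. The sex labels were borne out in every pool (Xist 62.1 to 180.3 in males and 1458 to 2011 in females), while Phex itself lay near background and checked no label. Segment markers of whole kidney (Lrp2, Umod, Slc12a1, Slc12a3, Aqp2 and Nphs1) exceeded the array median on all 24 arrays. Array medians were 164.6 to 211.2 on the 430A chip and 50.9 to 68.3 on the 430B chip, and the number of pools limits the precision. A probe set was tested if its signal exceeded the array median on at least 3 of 24 arrays. This kept 25 of the 26 probe sets; the 1 left out was a Slc20a1 probe set above the median on 0 arrays. Levels of different genes were not set against each other, because probe sets differ in brightness for the same amount of RNA. For the same reason the summed signals of marker lists given below are weighted to the brighter probe sets. They do not measure the amount of a cell type or segment.

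Below are the promoter windows of the 4 genes that fell in Hyp kidneys, shown because these were the ones called for genotype. Each runs from 250 bases before to 50 after a transcription start in RefSeq (assembly GRCm38.p6), and windows were found for 9 of the 10 genes. The windows are Slc34a1 at chr13:55399398-55399697 (plus strand), Slc34a3 at chr2:25234185-25234484 (minus strand), Pdzk1 at chr3:96829815-96830114 (plus strand) and Pth1r at chr9:110747096-110747395 (minus strand). Among the starts with a window, Pdzk1 had 2 and Pth1r had 3, and the most upstream of these is printed. The gene records of Slc34a1, Slc34a3 and Pdzk1 begin upstream of the starts used, at chr13:55399622, chr2:25234270 and chr3:96829456. Distances given below are counted from the starts used. Capitals mark matches, on either strand, to the 6 short motifs searched.
Slc34a1: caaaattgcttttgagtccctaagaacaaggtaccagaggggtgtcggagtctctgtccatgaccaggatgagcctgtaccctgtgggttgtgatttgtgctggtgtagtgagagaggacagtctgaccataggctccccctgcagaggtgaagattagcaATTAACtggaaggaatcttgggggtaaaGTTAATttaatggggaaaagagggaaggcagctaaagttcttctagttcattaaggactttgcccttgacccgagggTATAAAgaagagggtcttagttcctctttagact
Slc34a3: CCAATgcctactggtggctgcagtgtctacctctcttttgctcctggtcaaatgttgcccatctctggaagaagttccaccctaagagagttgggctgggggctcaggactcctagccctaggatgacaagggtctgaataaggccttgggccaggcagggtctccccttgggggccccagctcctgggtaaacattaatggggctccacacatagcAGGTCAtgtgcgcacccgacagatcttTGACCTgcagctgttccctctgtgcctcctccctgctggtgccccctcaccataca
Pdzk1: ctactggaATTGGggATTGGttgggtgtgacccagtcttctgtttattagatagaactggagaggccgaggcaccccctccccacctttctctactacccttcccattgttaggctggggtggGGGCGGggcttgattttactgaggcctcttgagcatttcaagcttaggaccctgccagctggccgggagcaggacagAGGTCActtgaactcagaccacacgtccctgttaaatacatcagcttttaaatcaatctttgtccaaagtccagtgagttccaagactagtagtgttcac
Pth1r: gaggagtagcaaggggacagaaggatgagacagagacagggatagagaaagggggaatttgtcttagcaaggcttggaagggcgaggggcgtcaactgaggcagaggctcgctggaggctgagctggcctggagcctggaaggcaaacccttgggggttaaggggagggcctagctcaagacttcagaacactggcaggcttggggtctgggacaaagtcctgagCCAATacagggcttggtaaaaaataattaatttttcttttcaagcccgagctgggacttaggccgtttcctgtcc
The Slc34a1 window holds GTTAAT, a half-site of the tubular factor HNF1, starting 61 bases before the start, and its reverse complement 89 bases before; this motif is present in 7.1% of 32851 mouse windows of the same length. It also holds TATAAA (13.6% of windows), which begins 16 bases after the annotated start. In the Slc34a3 window AGGTCA, a nuclear receptor half-site (16.3% of windows), begins 33 bases before the start and its reverse complement 6 bases before, and CCAAT (37.4% of windows) begins 250 bases before. The Pdzk1 window has AGGTCA 50 bases before the start, the reverse complement of CCAAT 235 and 242 bases before, and the GC box GGGCGG (35.7% of windows) 127 bases before. The Pth1r window has 1 match, CCAAT at 25 bases before the start. The E-box CACGTG (7.15% of windows) is in none of these 4 windows, no matches overlap in them, and no motif is in all 4. A match is a description of letters and not a measured site.

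Hyp kidneys were set against normal kidneys with the 4 combinations of diet and sex averaged. Both renal type II cotransporter genes, the scaffold gene Pdzk1 and the receptor gene Pth1r fell in Hyp kidneys, by 1.23- to 1.52-fold. These 4 were the called probe sets among 25 tested (limma, adjusted p under 0.05 over 28026 probe sets), and 0 of 25 rose. Over all probe sets tested 1.63% were called, 0.771% lower and 0.856% higher. The median difference of the 25 was -0.13 on the log2 scale with 21 below 0, against a median of -0.00 and 51.1% below 0 over all probe sets. Because the genes were chosen with earlier results of these data known, these shares and those given later describe the genes and do not test them as a set.

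Slc34a1 encodes NaPi-IIa, the main brush-border phosphate cotransporter of the mouse kidney. In males on low phosphate its signal was 16018, 13833 and 16817 in Hyp pools, against 17945, 18148 and 18724 in normal pools; in males on control it was 12464, 12274 and 15416 in Hyp pools, against 15369, 17139 and 15499 in normal pools. Hyp males were below normal males on low phosphate, and on control the highest Hyp pool lay just above the lowest normal pool. In females on low phosphate the signals were 11808, 12218 and 12727 in Hyp pools, against 16145, 14188 and 17516 in normal pools; in females on control they were 9785, 12333 and 11955 in Hyp pools, against 13263, 13599 and 16094 in normal pools. Hyp and normal female pools did not overlap on either diet. The mean was 13137 ± 2017 in Hyp pools and 16136 ± 1819 in normal pools (SD, n = 12 each), 1.23-fold lower in Hyp (log2 -0.30 ± 0.06 SE, adjusted p = 0.00947 by limma). This call was lost when each array was scaled to a common median (-0.28, adjusted p = 0.078 by limma) and was kept under the 7 other alternatives and without any 1 pool (adjusted p 0.00501 to 0.0226). Slc34a1 was among the brighter probe sets of a chip whose brightest read 30303 to 47504 by array, and whether signals were still proportional to RNA at that level was not tested.

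Slc34a3 encodes NaPi-IIc, the second renal type II cotransporter, whose loss in humans causes hypophosphatemic rickets with hypercalciuria. In males on low phosphate its signal was 767, 857 and 827 in Hyp pools, against 1069, 1310.3 and 1294 in normal pools; in males on control it was 624, 599 and 665 in Hyp pools, against 1009.5, 822 and 897 in normal pools. No Hyp male pool reached a normal male pool of the same diet. In females on low phosphate the signals were 813, 893 and 913 in Hyp pools, against 1413, 1409 and 1532 in normal pools; in females on control they were 806, 799 and 679 in Hyp pools, against 955, 1063 and 1471 in normal pools. The same held in females on both diets, and the third normal pool on control stood above its 2 companions. The mean was 770.1 ± 105 in Hyp pools and 1187 ± 245 in normal pools (SD, n = 12 each), 1.52-fold lower in Hyp (log2 -0.61 ± 0.08, adjusted p = 0.000138 by limma).

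Pdzk1 encodes NHERF3, a scaffold with several PDZ domains that binds NaPi-IIa. In males its signal was 8070.1, 8076 and 6618 in Hyp pools on low phosphate, against 8777, 9006 and 8108 in normal pools, and 6899, 7514 and 7092 in Hyp pools on control, against 8096, 8250 and 9014 in normal pools. Hyp males were below normal males on both diets, by a narrow gap on low phosphate. In females it was 7234, 7052 and 8682 in Hyp pools on low phosphate, against 10398, 9907 and 8632 in normal pools, and 7004, 6334 and 5845 in Hyp pools on control, against 9066, 9671 and 8063 in normal pools. Only the females on low phosphate overlapped, through the third pool of each genotype. The mean was 7201 ± 793 in Hyp pools and 8916 ± 762 in normal pools (SD, n = 12 each), 1.24-fold lower in Hyp (log2 -0.31 ± 0.06, adjusted p = 0.00482 by limma).

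Pth1r encodes the receptor for parathyroid hormone. In males its signal was 4660, 4333 and 4378 in Hyp pools on low phosphate, against 6097, 5291 and 5811 in normal pools, and 3936, 4016 and 4053 in Hyp pools on control, against 4765, 5422 and 5280.4 in normal pools. In females it was 3370.3, 3442 and 3484 in Hyp pools on low phosphate, against 5167, 5352 and 4846 in normal pools, and 3498, 3413 and 3374 in Hyp pools on control, against 4649, 4284 and 4584 in normal pools. All Hyp pools were below all normal pools of the same sex and diet, and the 6 Hyp female pools spanned a narrow range. The mean was 3830 ± 458 in Hyp pools and 5129 ± 526 in normal pools (SD, n = 12 each), 1.34-fold lower in Hyp (log2 -0.42 ± 0.04, adjusted p = 4.75e-06 by limma).

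**Figure D1:**
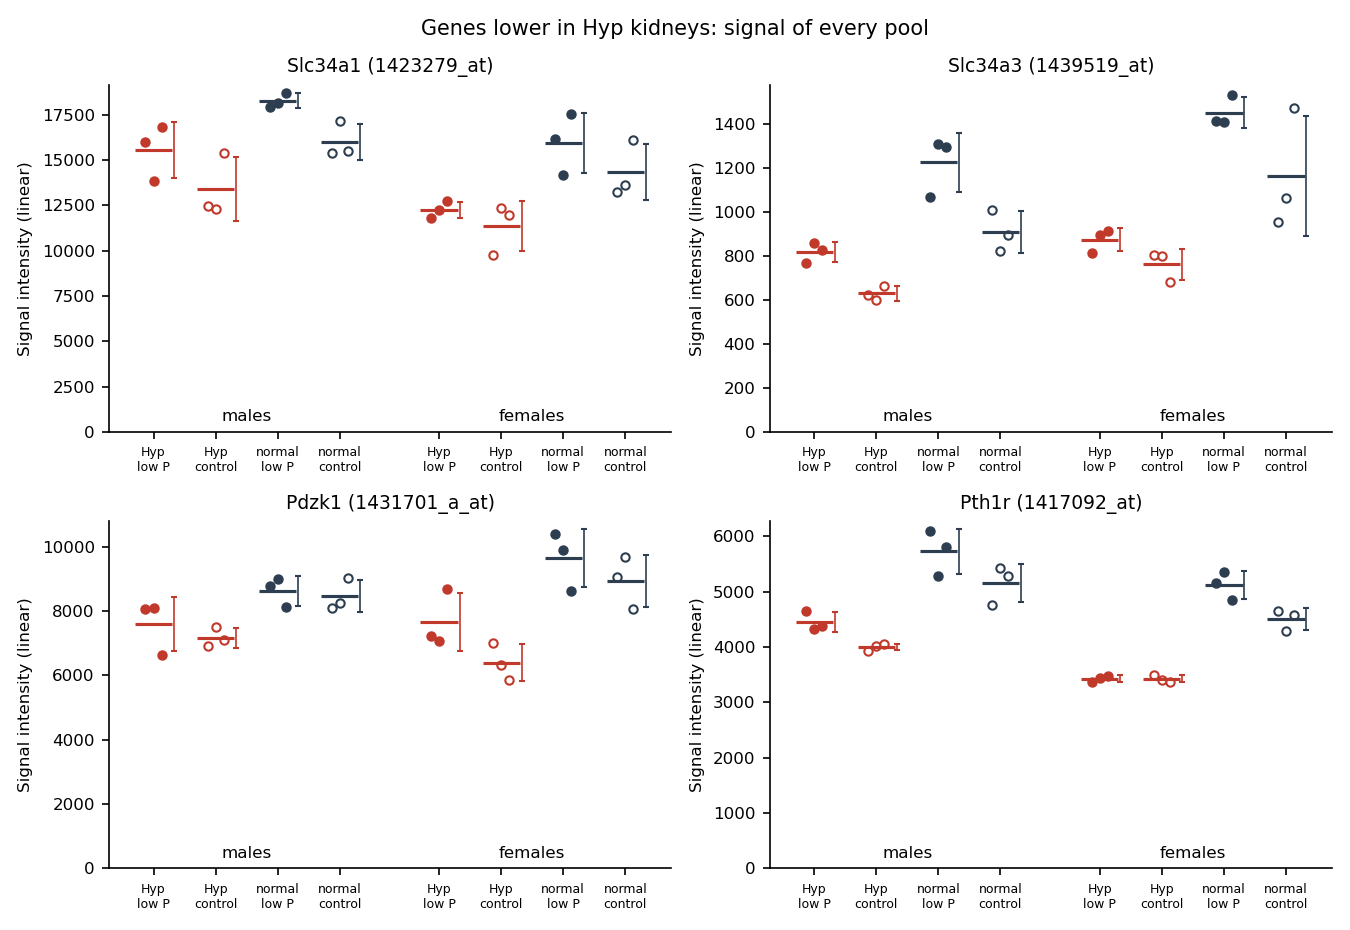
Linear signal intensity (y axis) of every pool for the 4 genes lower in Hyp kidneys, by genotype, diet and sex (x axis); points are pools, horizontal lines group means and side bars the SD of 3 pools. For Slc34a3 and Pth1r every Hyp pool lies below every normal pool of the same sex and diet; for Slc34a1 and Pdzk1 this holds in 3 of 4 sex and diet combinations.

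Non-overlap of Hyp below normal pools in each of the 4 combinations of diet and sex was met by 2 of the 25 probe sets, those of Slc34a3 and Pth1r, against 0.161% (45) of all 28026. The labels number the pools of a group as series 1, 2 and 3. Within each series the 4 genes were lower in Hyp: Slc34a1 by -0.34, -0.31 and -0.26, Slc34a3 by -0.55, -0.53 and -0.74, Pdzk1 by -0.31, -0.35 and -0.27, and Pth1r by -0.42, -0.42 and -0.43 (log2 differences). The sizes of Pth1r in the 3 series were the closest together of these 4 genes. These values are parts of the differences already called, and not separate evidence for them. The calls for Slc34a3, Pdzk1 and Pth1r held under all 8 alternatives and without any 1 pool.

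The order of the 8 groups was nearly that of genotype for each of these genes. For Slc34a1 the highest mean was that of normal males on low phosphate, 18272 ± 404 (SD, n = 3), with no overlap with the next group, and the lowest was that of Hyp females on control, 11358 ± 1375; neighbours in between overlapped, and Hyp males on low phosphate (15556 ± 1544) stood above normal females on control (14318 ± 1546). For Slc34a3 all 4 normal groups stood above all 4 Hyp groups, between 1451 ± 69.8 in normal females on low phosphate and 629 ± 33.3 in Hyp males on control. Pools of Slc34a3 did not overlap between the top group and the next, or between the bottom group and the next. All 4 normal groups also stood above the Hyp groups for Pdzk1, with overlap between all neighbours, from 9646 ± 911 in normal females on low phosphate down to 6394 ± 582 in Hyp females on control. For Pth1r the top was normal males on low phosphate (5733 ± 408) and the bottom Hyp females on control (3428 ± 63.6), which overlapped with Hyp females on low phosphate (3432 ± 57.6).

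The other transporters and scaffolds passed no test for genotype. Slc34a2, the type II cotransporter of lung and intestine, was near the array median, above it on 13 of 24 arrays. Its signal was 113.3 to 247 (median 214.6) in Hyp pools and 80.8 to 286.5 (median 170.3) in normal pools, which overlap widely (0.32 ± 0.14, adjusted p = 0.392 by limma). Slc20a1, encoding the type III cotransporter PiT-1, read 232 to 455.5 (median 371.4) in Hyp pools and 296.9 to 436.2 (median 360.9) in normal pools. Its difference was -0.01 with a 95% interval of -0.19 to 0.16, and a second Slc20a1 probe set gave -0.03 (-0.50 to 0.45); under median and quantile scaling the first of these was just above 0. Slc20a2, encoding PiT-2, had 315.4 to 523.1 (median 415.8) in Hyp pools and 361.1 to 691.8 (median 421.8) in normal pools. Its 2 probe sets lay on either side of 0 (-0.16 ± 0.11 and 0.12 ± 0.14), and neither passed (adjusted p = 0.707 and 0.870 by limma).

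Xpr1, the exporter that moves phosphate out of cells, was below 0 in 7 of 7 probe sets (-0.26 to -0.11), a sign kept under median and quantile scaling, and 0 of 7 passed (adjusted p 0.201 to 0.961 by limma). The Xpr1 probe set with the highest signal read 621.9 to 1015.5 (median 888) in Hyp pools and 864.8 to 1202 (median 1000.1) in normal pools, a difference of -0.20 with an interval of -0.34 to -0.05 (adjusted p = 0.240 by limma). Slc9a3r1, encoding the scaffold NHERF1 that binds NaPi-IIa and the hormone receptor, gave -0.08 to -0.00 over its 3 probe sets (adjusted p 0.842 to 0.994), and 1 of the 3 was above 0 under median and quantile scaling. Its brightest probe set read 2587 to 5363 (median 3983) in Hyp pools and 3048 to 4955 (median 4242) in normal pools, with almost complete overlap. Slc9a3r2, encoding NHERF2, gave -0.18 to 0.06 over 6 probe sets, 4 of them below 0 as deposited and 3 under either scaling (adjusted p 0.596 to 0.996). Counted without adjustment, 8 of the 25 probe sets had p under 0.05 for genotype.

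**Figure D2:**
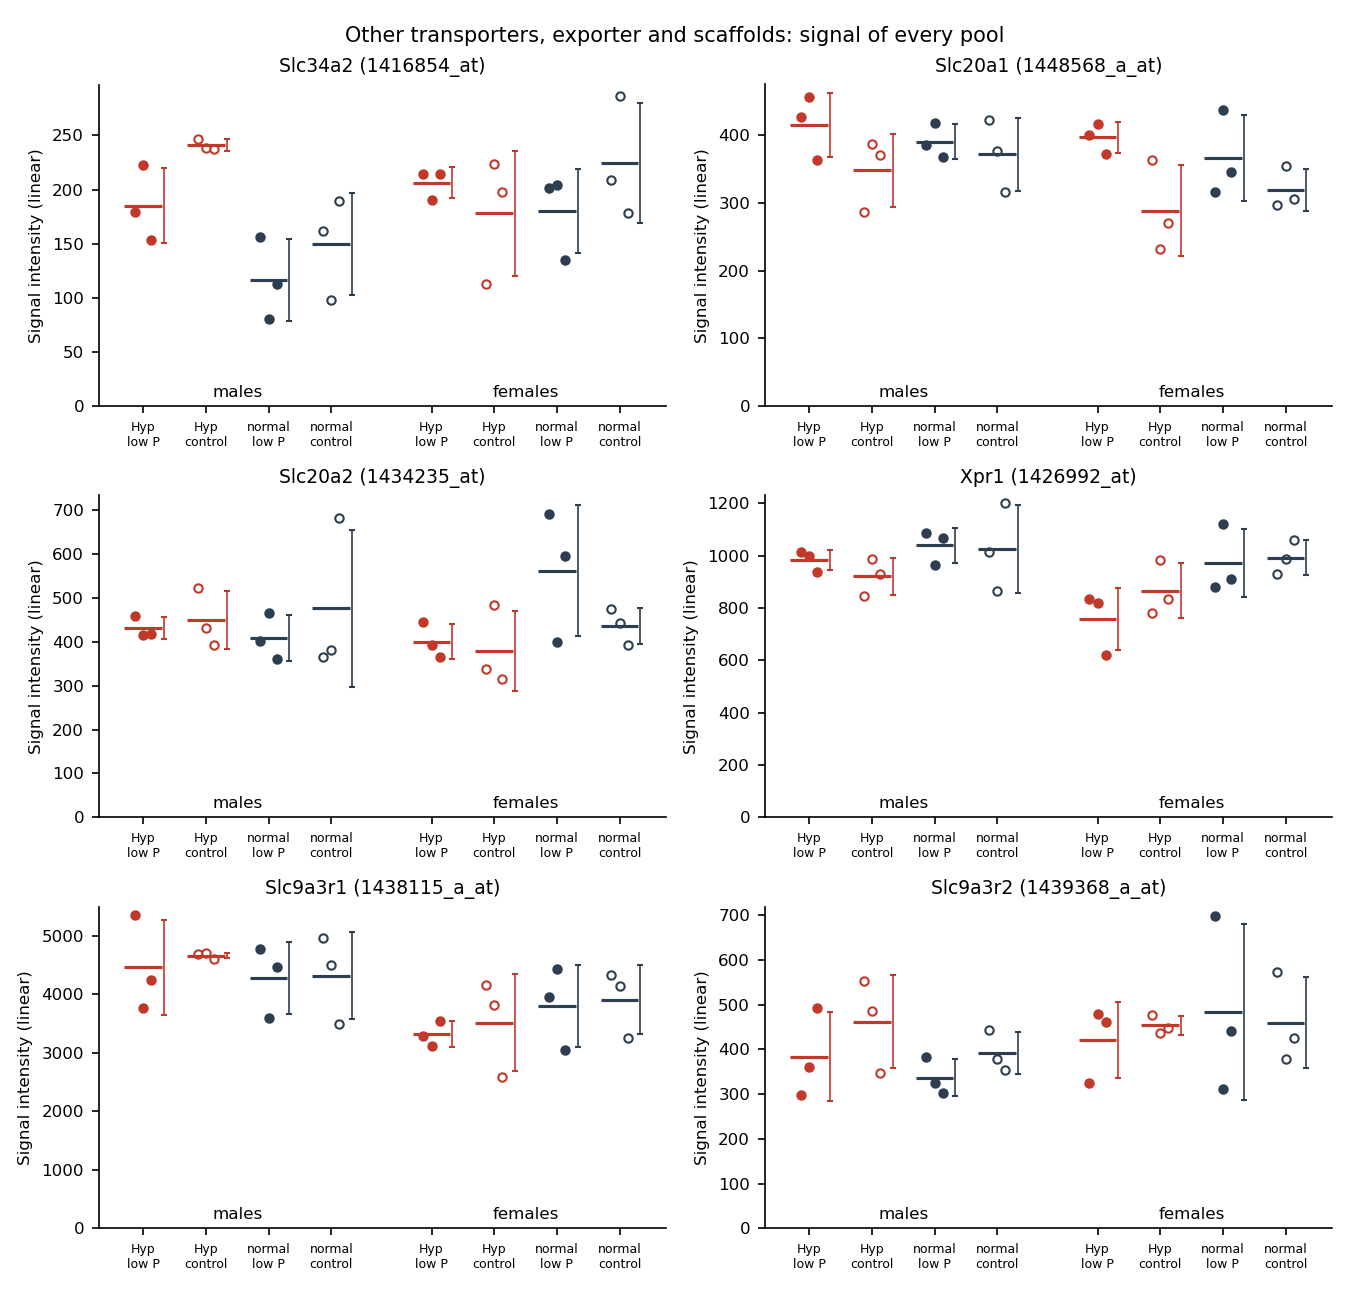
Linear signal intensity (y axis) of every pool for the 6 genes with no probe set called for genotype, 1 probe set a gene, by genotype, diet and sex (x axis); points are pools, lines group means and side bars the SD of 3 pools. Hyp and normal pools overlap for every gene when all 12 pools of each genotype are pooled over diet and sex.

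Other measures moved with genotype. The 3′ over 5′ ratio of the actin control probe sets on the 430A chip was 1.16 to 1.39 (median 1.31) in Hyp pools and 1.26 to 1.51 (median 1.41) in normal pools, and that of Gapdh was 0.696 to 0.790 and 0.652 to 0.787. Markers of other kidney compartments differed too: of 8 proximal straight tubule markers 4 rose and 0 fell, with a summed signal of 26740 to 48798 in Hyp pools and 28180 to 38345 in normal pools, and of 11 collecting duct markers 3 rose and 0 fell (9170.1 to 12352 and 7258 to 11968). Of 4 kidney injury markers 1, Clu, rose (summed signal 4749 to 6962 in Hyp pools and 3644 to 5696 in normal pools), and of 2 red cell markers 1, Slc4a1, rose (600.6 to 824.2 and 405.6 to 683.8). Slc4a1, the anion exchanger of red cells and of intercalated cells, is on both the red cell and the collecting duct list, so its call counts once in each; the other red cell marker, Alas2, gave 0.57 ± 0.16 (adjusted p = 0.0974 by limma). Of 10 thick limb and distal tubule markers 1 rose and 3 fell (44601 to 68285 in Hyp pools and 47582 to 67253 in normal pools). Of the glomerular (5), endothelial (5), leukocyte (6), fibroblast and smooth muscle (5), adrenal (3) and fat (2) markers tested, 0 were called for genotype. The part of these measures in the falls of the 4 genes was not tested, and in whole kidney fewer cells of a type and less RNA per cell cannot be told apart.

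The next comparison set the low phosphate diet against the control diet, a challenge that normally raises phosphate reabsorption. None of the 25 probe sets passed the test (limma, 7 with unadjusted p under 0.05), where 0.664% of all probe sets were called. The median of the 25 was 0.08, against 0.01 over all. Slc34a3 came nearest: its signal was 767 to 913 (median 842) in the 6 Hyp pools on low phosphate and 599 to 806 (median 672) in the 6 Hyp pools on control, and 1069 to 1532 (median 1360) in normal pools on low phosphate and 822 to 1471 (median 982) in normal pools on control. It was higher on low phosphate in 4 of 4 combinations of genotype and sex and without overlap in 3, the exception being normal females. The difference was 0.34 ± 0.08 (adjusted p = 0.0589 by limma). It passed with a pseudocount of 50 and with an intensity trend. It also passed without the third normal female pool on control (0.38, adjusted p = 0.0121 by limma) and without the first normal male pool on low phosphate (0.36, adjusted p = 0.05); across all alternatives the adjusted p was 0.00408 to 0.227.

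Slc34a1 was higher on low phosphate in 4 of 4 combinations, 15507 ± 2458 on low phosphate and 13766 ± 2142 on control (SD, n = 12 each), with overlap in 3 of them. Its difference of 0.17 ± 0.06 did not pass (adjusted p = 0.334 by limma), and the 95% interval of 0.04 to 0.30 bounds it on both sides. Slc20a1 read 315.5 to 455.5 (median 392.4) on low phosphate and 232 to 421.9 (median 334.9) on control, higher in 4 of 4 combinations and without overlap only in Hyp females (0.25 ± 0.08, adjusted p = 0.259 by limma). The second Slc20a1 probe set tested gave 0.08 ± 0.23. Pth1r and Pdzk1 gave 0.12 ± 0.04 and 0.12 ± 0.06 (adjusted p = 0.323 and 0.550 by limma). Slc20a2 gave 0.05 ± 0.11 and 0.31 ± 0.14 by its 2 probe sets, and Xpr1 gave -0.06 to 0.30 over 7. The Slc34a2 probe set gave -0.20 ± 0.14, and the scaffolds Slc9a3r1 and Slc9a3r2 gave -0.05 to 0.08 and -0.15 to 0.26.

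**Figure D3:**
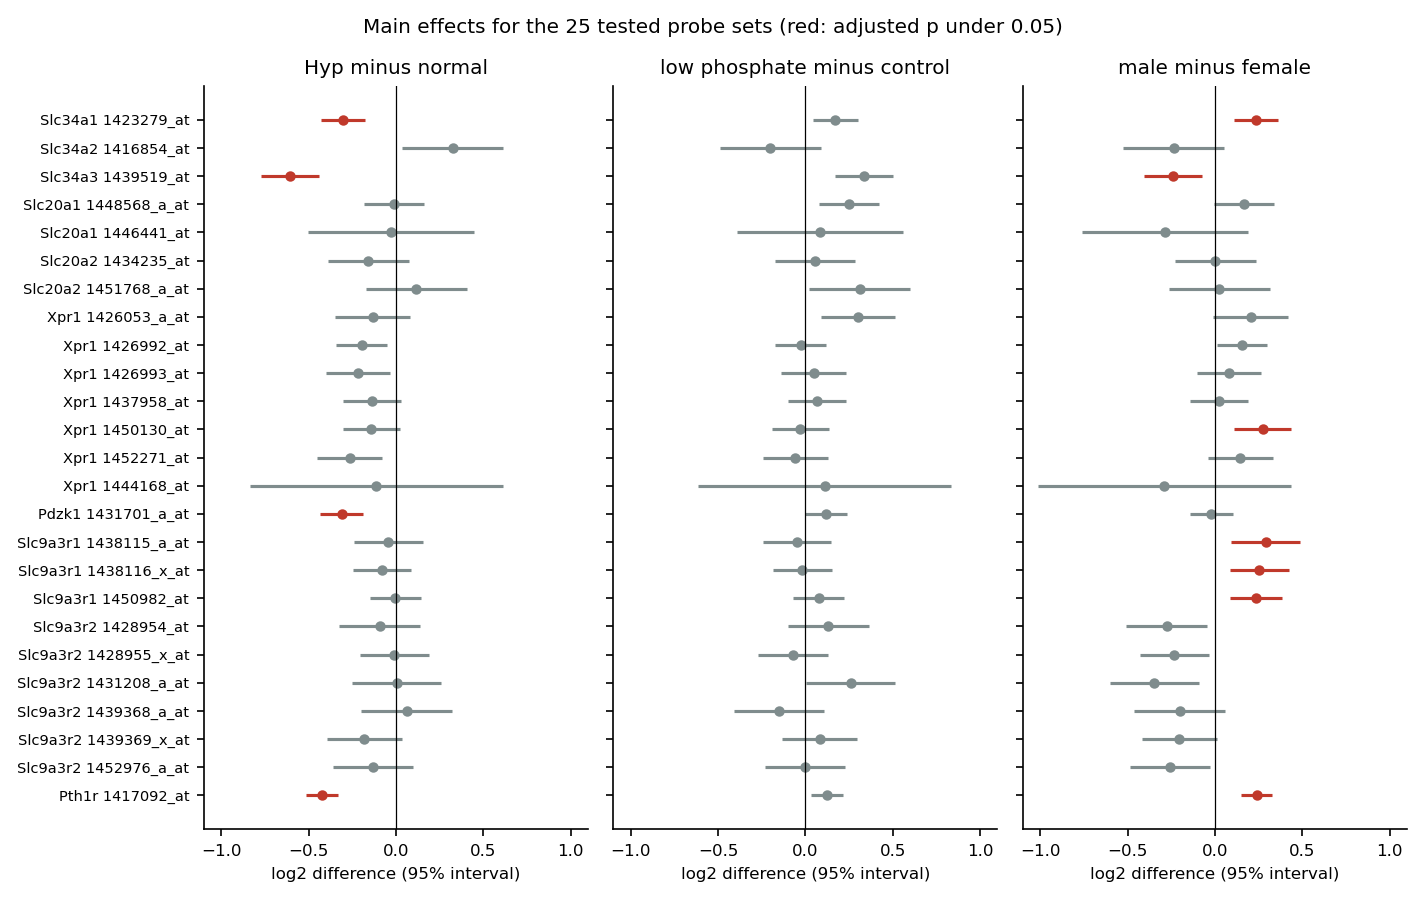
Log2 differences with 95% intervals (x axes) for the 25 tested probe sets (y axis) in 3 panels: Hyp minus normal, low phosphate minus control and male minus female; red marks an adjusted p under 0.05. Hyp minus normal has 4 called probe sets, all lower, low phosphate minus control has 0, and male minus female has 7, of which 6 are higher in males.

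The factorial design also asks whether the response to the diet depends on the Hyp mutation. None of the 25 probe sets was called for genotype by diet (1 with unadjusted p under 0.05), where 0.0143% of all probe sets were called. Scaling each array to a common median moved the median of all probe sets for this contrast to -0.05, against 0.05 as deposited, so values near that size have no settled sign. Slc34a3 was higher on low phosphate by 0.29 ± 0.11 in Hyp pools and by 0.39 ± 0.11 in normal pools, and the difference of these responses was -0.10 with a 95% interval of -0.43 to 0.23. For Slc34a1 the responses were 0.17 ± 0.09 in Hyp pools and 0.17 ± 0.09 in normal pools, with a difference of -0.01 (-0.26 to 0.25). Slc20a1 gave 0.37 ± 0.12 in Hyp pools and 0.13 ± 0.12 in normal pools (difference 0.24, -0.11 to 0.58). Pth1r gave 0.08 ± 0.06 in Hyp pools and 0.17 ± 0.06 in normal pools (difference -0.09, -0.27 to 0.09). These intervals are wide against the responses themselves, so equal responses are not shown. Within 1 genotype, 0 of 25 were called in Hyp pools (4 unadjusted, 0.139% of all probe sets called by limma) and 0 of 25 in normal pools (2 unadjusted, 0.389% of all).

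**Figure D4:**
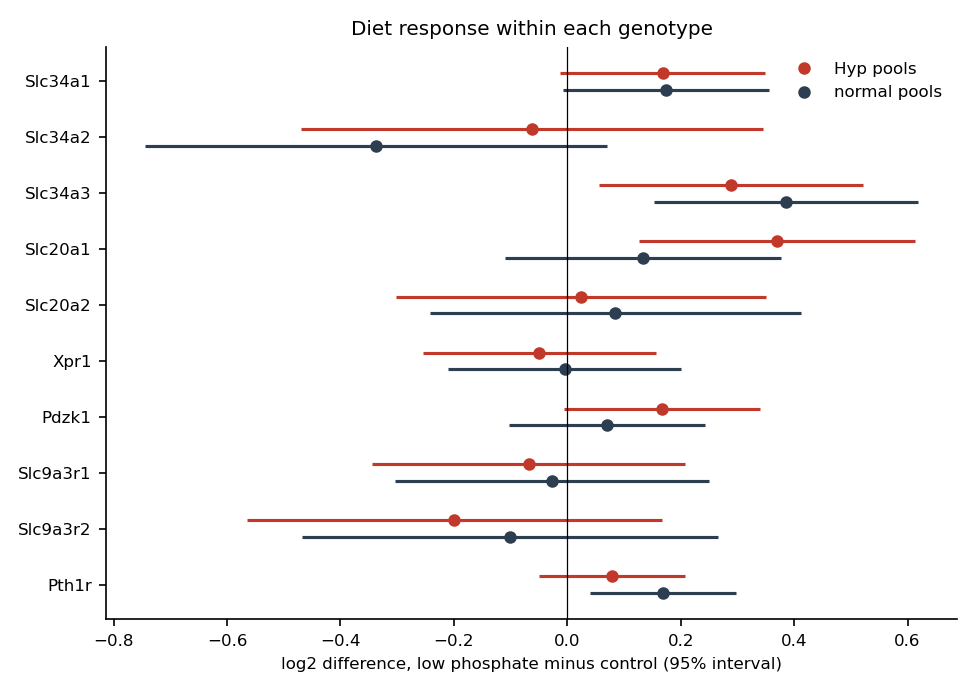
Log2 difference of low phosphate minus control with its 95% interval (x axis) for 1 probe set of each of the 10 genes (y axis), in Hyp pools (red, upper) and normal pools (dark, lower). The intervals of the 2 genotypes overlap for every gene, and those of Slc34a3 lie above 0 in both. These intervals are not adjusted for the number of probe sets, and no response was called. For Slc34a3 the adjusted p was 0.654 in Hyp pools and 0.223 in normal pools by limma.

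Seen the other way, Slc34a3 and Pth1r were called lower in Hyp kidneys on each diet, 2 of 25 probe sets both times (0.664% of all called on low phosphate, 0.264% lower, and 0.51% on control, 0.189% lower). On low phosphate the differences were -0.66 ± 0.11 for Slc34a3 (adjusted p = 0.00479) and -0.47 ± 0.06 for Pth1r (adjusted p = 0.000227), and on control they were -0.56 ± 0.11 (adjusted p = 0.0230) and -0.38 ± 0.06 (adjusted p = 0.00270), all by limma. The Slc34a3 call on control was lost without any 1 of 6 control pools (Hyp female 3, Hyp male 1 and 2, normal female 3, normal male 1 and 3; adjusted p 0.0528 to 0.0755 by limma). It was also lost with no filter, with adjustment within each chip and after scaling to a common median (adjusted p up to 0.247 by limma), and the Pth1r call on control was lost after that scaling (-0.33, adjusted p = 0.0878). Slc34a1 was -0.31 ± 0.09 on low phosphate and -0.30 ± 0.09 on control, called on neither (adjusted p = 0.154 and 0.198 by limma). Pdzk1 was -0.26 ± 0.08 on low phosphate and -0.36 ± 0.08 on control (adjusted p = 0.234 and 0.0583 by limma); the control value passed under 5 of 8 alternatives and without any 1 of 4 pools (Hyp female control 1, Hyp female low phosphate 3, Hyp male low phosphate 3 and normal female control 3).

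Male kidneys were set against female kidneys over both genotypes and diets. Slc34a1, Pth1r, Slc9a3r1 and 1 Xpr1 probe set were higher in males and Slc34a3 was lower, 7 of 25 probe sets (14.7% of all 28026 were called, 5.98% higher and 8.68% lower). Slc34a1 read 12274 to 18724 (median 15758) in males and 9785 to 17516 (median 12995) in females, higher in 4 of 4 combinations of genotype and diet (0.24 ± 0.06, adjusted p = 0.0117 by limma). Pth1r read 3936 to 6097 (median 4712) in males and 3370.3 to 5352 (median 3891) in females, higher in 4 of 4 and without overlap in 3 (0.24 ± 0.04, adjusted p = 0.000597 by limma). Both calls held under all 8 alternatives and without any 1 pool.

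The NHERF1 scaffold gene Slc9a3r1 was called in 3 of 3 probe sets (0.24 to 0.29, adjusted p 0.0273 to 0.0418 by limma). Its brightest probe set read 3500 to 5363 (median 4557) in males and 2587 to 4425 (median 3682) in females. In Hyp pools this probe set was higher in males by 0.44 on control and 0.41 on low phosphate, without overlap. In normal pools the values were 0.14 and 0.17, with overlap. The probe set designed from the same sequence record was lower in males in 1 of 4 combinations, normal pools on control (-0.23). The 3 calls were lost with no filter and with quantile normalization, and leaving out any 1 of 15, 14 and 5 of the 24 pools removed them, in falling order of effect. Xpr1 was called in 1 of 7 probe sets (0.27 ± 0.08, adjusted p = 0.0209 by limma), and the other 6 gave -0.29 to 0.20. Slc34a3 read 599 to 1310.3 (median 842) in males and 679 to 1532 (median 934) in females, lower in males in 4 of 4 combinations (-0.24 ± 0.08, adjusted p = 0.0489 by limma). This call was lost under 4 of 8 alternatives and without any 1 of 21 pools; it was kept only without the third Hyp female, the first normal male or the first normal female pool on control. Slc9a3r2 was below 0 in 6 of 6 probe sets (-0.35 to -0.20, also under median and quantile scaling), with 0 called as deposited (adjusted p 0.0638 to 0.327 by limma). Over all probe sets 58.3% were below 0 for sex (median -0.04), and 5 of these 6 came from shared sequence records, so their signs are not independent. The Slc9a3r2 probe set with the smallest p passed under 2 of 7 alternatives, adjustment within each chip and the series number as a block. It also passed without Hyp male low phosphate pool 1, Hyp female control pool 3, normal male low phosphate pool 2 or normal male control pool 2 (adjusted p as low as 0.0455 by limma), and 4 of its other 5 probe sets passed without 1 or 2 single pools. Pdzk1 gave -0.02 ± 0.06 and turned to 0.08 under median scaling, and the 2 Slc20a2 probe sets gave 0.00 and 0.02.

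Scaling each array to a common median changed the split of all calls for sex: 40.8% of the called probe sets were higher in males as deposited and 66.6% after it. Markers of other cell types and segments moved with sex as well, in both directions. Of 8 proximal straight tubule markers 3 were higher and 4 lower in males (log2 differences of all 8 from -4.02 to 5.82), with a summed signal of 30651 to 48798 (median 39214) in males and 26740 to 34447 (median 30169) in females. Of 10 thick limb and distal tubule markers 0 rose and 5 fell (44601 to 62320.2 in males and 48356 to 68285 in females). Summed signals were 2499 to 3503 in males and 3330 to 3995 in females for 5 endothelial markers (0 rose and 2 fell), 1574 to 2102 and 2030.4 to 2691 for 6 leukocyte markers (0 and 3), and 3712 to 4460.1 and 4457 to 5693 for 5 fibroblast and smooth muscle markers (0 and 3). They were 1840 to 2384 in males and 1914 to 2711 in females for 5 glomerular markers (0 rose and 3 fell), and 7258 to 10220.3 and 9868 to 12352 for 11 collecting duct markers (0 and 5). For 2 fat markers (0 rose and 2 fell) they were 321.6 to 603.2 in males and 465.5 to 822.6 in females, and for 4 kidney injury markers (1 rose and 1 fell) 3644 to 5588 and 4944 to 6962. Of the adrenal (3) and red cell (2) markers 0 were called. The actin 3′ over 5′ ratio was 1.28 to 1.51 (median 1.39) in males and 1.16 to 1.47 (median 1.31) in females. Their part in the differences of Slc34a1, Slc34a3, Slc9a3r1 and Pth1r was not tested. None of the 25 probe sets was called for genotype by sex (2 unadjusted, 0.05% of all called) or for diet by sex (1 unadjusted, 0% of all called). The smallest genotype by sex p was that of a Slc9a3r1 probe set (0.48 ± 0.16, adjusted p = 0.613 by limma), and Slc34a2 gave 0.79 ± 0.28 (adjusted p = 0.623).

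Genes of the surrounding pathway were taken from lists. In the list of the phosphate hormone and vitamin D axis, 16 of 23 genes were tested, and 1 rose and 3 fell in Hyp kidneys, with a list median of -0.10. Kl, the FGF23 coreceptor klotho, fell by 0.69 ± 0.08 on the log2 scale (adjusted p = 9.02e-06 by limma) and was called lower on low phosphate (-0.74 ± 0.11) and on control (-0.65 ± 0.11). Alpl, a phosphatase of the proximal brush border and of bone, fell by 0.44 ± 0.06. Cyp24a1, which breaks down active vitamin D, was higher by 1.88 ± 0.14, an average over diets on which the gap differed. Its mean signal in Hyp pools was 3383 on low phosphate and 2199 on control in males, and 2296 and 1721 in females. In normal pools it was 368 and 863 in males, and 648 and 879 in females. Cyp24a1 was not called for genotype by diet. Cyp27b1, which makes active vitamin D, averaged -1.72 ± 0.26, an average of opposite signs: -5.04 ± 0.37 on low phosphate and 1.59 ± 0.37 on control (adjusted p = 0.0669 by limma), with a genotype by diet difference of -6.62 ± 0.53 (adjusted p = 8.37e-07). Its mean signals on low phosphate were 8.10 ± 2.98 in Hyp males and 15.2 ± 9.35 in Hyp females, against 368.2 ± 76.9 in normal males and 304.4 ± 130 in normal females (SD, n = 3), so the low end is near background and the size of that difference is uncertain. On low phosphate against control Kl rose by 0.47 ± 0.08 and Alpl by 0.28 ± 0.06, and Cyp27b1 averaged -1.20 ± 0.26 over responses of -4.51 ± 0.37 in Hyp pools and 2.11 ± 0.37 in normal pools.

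Of the 19 genes of parathyroid hormone receptor signalling, 1 rose and 1 fell in Hyp kidneys: Rgs2, a regulator of G protein signalling (0.47 ± 0.11, adjusted p = 0.0203 by limma), and Gna12, a G protein subunit (-0.44 ± 0.08, adjusted p = 0.00247). The list median was -0.03, and Gnas, the stimulatory G protein that couples the receptor to cyclic AMP, gave -0.01 ± 0.07. For diet 0 of the 19 were called, and for sex 6 were lower in males and 0 higher. Of 17 apical partners of the cotransporters and scaffolds, 0 rose and 2 fell in Hyp kidneys. They were Msn, an actin-linking protein of the ezrin family (-0.42 ± 0.05, adjusted p = 6.05e-05 by limma), and Slc22a12, the urate transporter URAT1 that binds the Pdzk1 protein in humans (-0.39 ± 0.07, adjusted p = 0.00222). Slc22a12 was also the 1 partner called for diet (0.37 ± 0.07, adjusted p = 0.00654 by limma). Ezr, which links NHERF1 to actin, gave -0.13 ± 0.06 for genotype, and Slc9a3, encoding NHE3, gave -0.02 ± 0.08 (adjusted p = 0.442 and 0.981 by limma).

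Among 12 other transporters of the proximal convoluted tubule, 2 rose and 4 fell in Hyp kidneys, with a median of -0.16. The glucose transporters Slc5a2 (-0.64 ± 0.06) and Slc2a2 (-0.32 ± 0.06), the bicarbonate cotransporter Slc4a4 (-0.28 ± 0.05) and the organic anion transporter Slc22a6 (-0.23 ± 0.05) fell, while the sulfate cotransporter Slc13a1 (0.93 ± 0.06) and the anion transporter Slc22a8 (0.31 ± 0.06) rose. Transporters of this segment thus moved in both directions beside the phosphate genes. The summed signal of the 12 was 48299 to 55211 in Hyp pools and 48863 to 57445 in normal pools. For diet 2 of them rose, Slc2a2 (0.36 ± 0.06) and Slc5a2 (0.30 ± 0.06), and 2 fell, Slc13a1 (-0.31 ± 0.06) and Slc22a6 (-0.23 ± 0.05).

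The genes whose log2 signal was most like that of a member over the 24 pools were sought among 11786 named genes. These correlations describe the pools, which share genotype, diet and sex. Slc34a1 was most like Kl (Pearson r = 0.89, Spearman rho = 0.91), followed by Sod3 (0.86), Slc22a12 (0.85), Dleu7 (0.85) and Susd2 (0.84). Once each group's mean was taken off, r with Kl was 0.59 and r with Slc22a12 was 0.78. In these and all later within-group values only the group means were taken off. Deviations shared by pools of the same series number were left in, and their part in these values was not tested. Slc34a3 was most like Car14, a carbonic anhydrase gene (r = 0.90, rho = 0.91), followed by Cpne4 (0.88), Alpl (0.86), Dpep1 (0.83) and Fabp3 (0.83), and its r with Car14 within groups was 0.32. Pdzk1 was most like Slc5a2 (r = 0.91, rho = 0.90, and 0.78 within groups), followed by Fam107b (0.84), Hoga1 (0.82), Msn (0.79) and Kidins220 (0.79). Pth1r was most like Susd2 (r = 0.93, rho = 0.91), followed by Car3 (0.88), Cyp2d12 (0.86), Kl (0.86) and Dnase1 (0.86). Within groups its r was 0.41 with Susd2 and -0.04 with Kl, so the likeness of Pth1r and Kl lay between the groups and not among pools of the same group.

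**Figure D5:**
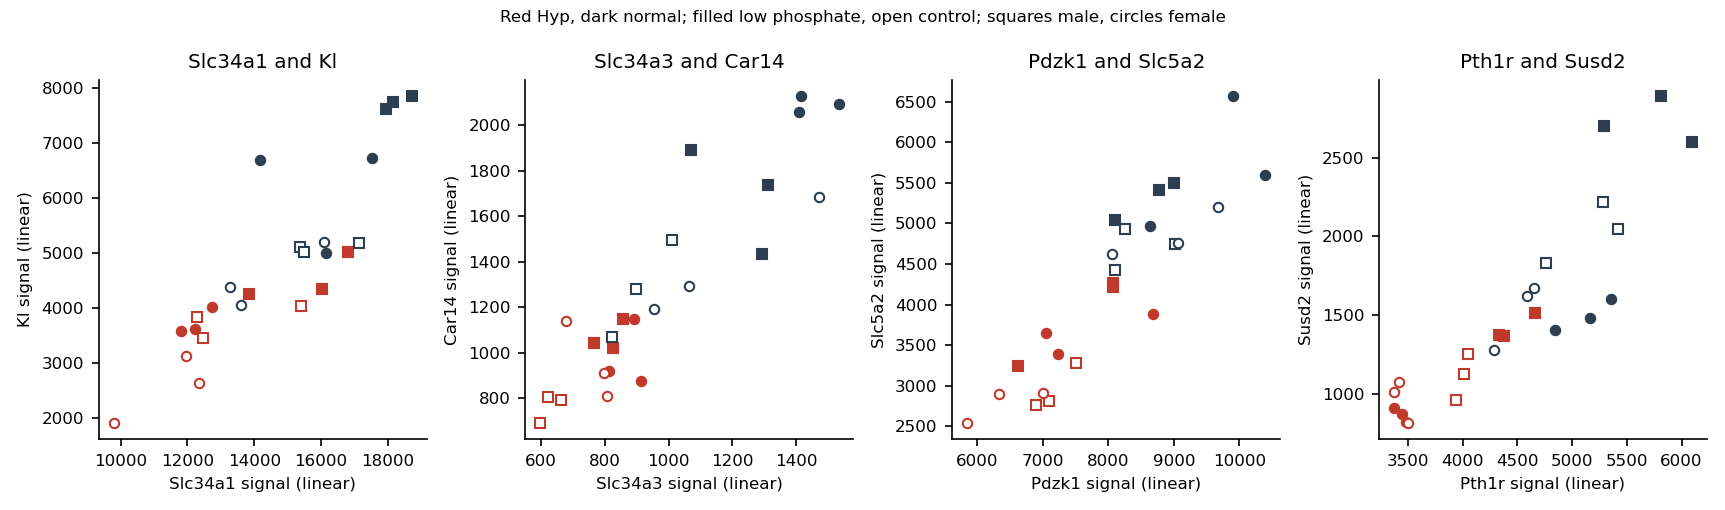
Linear signal of Slc34a1, Slc34a3, Pdzk1 and Pth1r (x axes) against that of the gene most like each (y axes) in 24 pools; red is Hyp and dark is normal, filled is low phosphate and open is control, squares are males and circles females. Most Hyp pools lie to the lower left of most normal pools in each panel, with Pearson r of log2 signals of 0.89, 0.90, 0.91 and 0.93.

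Among the members themselves, Slc34a1 and Pth1r had the most alike pattern (r = 0.84 over 24 pools), and within groups their r was 0.01. Pdzk1 and Pth1r gave 0.68 over pools and 0.21 within groups. Slc34a3 gave r = 0.68 with Pdzk1, 0.59 with Pth1r and 0.55 with Slc34a1. Within groups these 3 values were -0.21, -0.35 and 0.29. Slc34a1 and Pdzk1 gave 0.45 over pools and -0.50 within groups. Slc9a3r1 gave r = 0.22 with Slc34a1 and 0.22 with Pdzk1, and within groups -0.32 and 0.40.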

How the data were processed

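RNA from 24 whole-kidney pools (72 mice, 3 a pool) was measured on the Affymetrix mouse 430A and 430B arrays, 48 arrays in all. The authors deposited 1 linear signal intensity per probe set and array, and the submitters' processing notes name GCOS 1.2; no source used here gives its scaling algorithm or target. Of 45137 probe sets that are not controls, 35041 carried 1 gene symbol, 936 several and 9160 none in the platform annotation, and 34837 were updated by Entrez ID.

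Signals below 1 were set to 1, and log2 values were fitted per chip with limma 3.58.1 in R 4.3.3, as 8 group means without a block. A probe set was kept if it exceeded the array median on at least 3 of 24 arrays (28026 kept). P-values were Benjamini-Hochberg adjusted over both chips, with a threshold of 0.05 and 95% intervals. Averages over groups gave the genotype, diet and sex effects. A gene with several probe sets was shown by the one with the highest mean log2 signal, from 430A where it had one. The script was tested on simulated data.

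All probe sets of the 10 genes were described. From each list, up to 4 genes with the smallest adjusted p for genotype and up to 4 for diet were named, with Kl, Cyp27b1, Cyp24a1, Phex and Slc9a3 always; Gnas, Slc22a8 and single markers were named after their values were seen. The members and lists were chosen with earlier results of these data known. For likeness, 5 genes per member were named by Pearson correlation. The pools carry series numbers in the labels, and the main fit did not take these numbers as pairs. Same-numbered pools had correlated deviations above 0.1 in 32 of 84 pairs on 430A and 0 of 84 on 430B. Their median r was 0.07 on 430A and 0.02 on 430B, against -0.03 and -0.01 between numbers. Of 24 pools, 15 on 430A and 22 on 430B correlated best with their own number, so some shared deviation by series was left in the main fit. The counts with series as a block are given below. Nothing in the labels says that pools came from separate litters. The 430A and 430B arrays with the same group and number were taken as 1 pool. Alternatives were no filter, a pseudocount of 50, scaling each array to a common median, quantile normalization, 1 probe set per gene, adjustment within each chip, an intensity trend, the series number as a block, and leaving out each pool in turn. No genome of the files' build was used.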

Additional observations from a re-analysis of the deposited data

How the results depend on the processing

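Of the 25 probe sets tested, 4 were called for genotype without any 1 of the 24 pools (lowest and highest 4), and 0 results changed sign with a call. Scaling each array to a common median lost the Slc34a1 call for genotype (adjusted p = 0.078 by limma), and the other alternatives kept all 4 calls. For diet the count was 0, and 1 with a pseudocount of 50 or with an intensity trend (0 to 1 with a pool left out), through Slc34a3 each time. For sex it was 7, with 3 under no filter and 4 under quantile normalization (3 to 8 with a pool left out). On the control diet the genotype count was 2, with 1 under no filter and 0 under scaling to a common median (1 to 3 with a pool left out); on low phosphate it was 2 (2 to 2). For diet within normal pools it was 0, and 1 with the intensity trend. The cause of these moves was not tested. With the replicate number (series) as a block, the count was 4 for genotype, 0 for diet, 8 for sex and 3 for genotype on control, and 15 pools on 430A and 22 on 430B correlated best with their own number, of 24. Over all probe sets the block called 549 for genotype, 255 for diet and 4551 for sex, against 456, 186 and 4109 without it. The block added 2 calls among the 25, a Slc9a3r2 probe set for sex (-0.35, adjusted p = 0.0388 by limma) and Pdzk1 for genotype on control, and changed no other. Counts over all probe sets that moved by more than 1.5 times were diet (186, with 120 under no filter and 280 with the trend), diet in normal pools (109, with 60 and 166), diet in Hyp pools (39, with 70 under the trend), genotype by diet (4, with 12) and genotype by sex (14, with 29). Leaving out 1 pool also moved some of them by that much: diet in Hyp pools to 23 or 25 without Hyp male or Hyp female low phosphate 2, diet in normal pools to 68, 69, 71 or 72 without normal male control 1, normal male low phosphate 2 or 3 or normal female control 1, genotype by sex to 22 without Hyp female control 1, genotype by diet to 7 without normal female control 3, and diet by sex to 1, against 0, without any 1 of 5 pools. Scaling to a common median also moved the share of calls that were higher to 73.5%, against 62.9% as deposited, for genotype on control, and to 26.5%, against 48.7%, for diet in Hyp pools. The number of pools and signals near background limit the precision for Slc34a2 and the dimmer Slc20a1, Xpr1 and Slc9a3r2 probe sets.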
